A study of Mus musculus with 5 samples.

Results

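Olig3-positive progenitors were examined in single-cell RNA sequencing of the developing mouse cerebellum. They were selected on detection of 4 genes, as cells of the 4 libraries titled RL in which Sox2, Msx3 and Olig3 each had at least 1 unique molecular identifier (UMI, one counted mRNA molecule) and Barhl1 had none. They numbered 345 of 4311 cells in those libraries and of 6987 cells in the series. They were compared with the 811 cells of the same libraries that met the same conditions with no Olig3 UMI, called Olig3-undetected progenitors below. The rule fixes the values of Sox2, Msx3, Olig3 and Barhl1 in these cells, and none of those values is a result. The libraries were 2 titled RL at embryonic day 14 (e14), 2 titled RL at e13 and 1 titled EomesCreER at e16, all of cerebellum. The title and the age tag of 1 library disagree (e13 in the title, e14 in the tag), and it is called RL e13 replicate 2 here, after its title. The title of the e16 library names EomesCreER, and beyond that the labels used here give no genotype, strain, sex or treatment. They do not explain the UT in the RL titles, and do not say whether replicates came from separate animals. The p-values below therefore concern how the class difference varied between libraries, not between animals. Most of the variance behind them was borrowed from other genes.

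The rhombic lip is the dorsal edge of the hindbrain neuroepithelium, beside the roof plate. It produces the glutamatergic neurons of the cerebellum, among them granule cells, from progenitors that switch on the transcription factor Atoh1, while the adjoining ventricular zone uses Ptf1a to produce GABAergic neurons. Olig3 is a basic helix-loop-helix factor of dorsal hindbrain progenitors, and Msx3 is a dorsal homeobox factor. Sox2 marks undifferentiated neural progenitors, and Barhl1 marks descendants of the rhombic lip.

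Olig3 lies on chromosome 10 at 19356533-19358604 (plus strand, GRCm38), and Atoh1, the gene with the largest positive difference among those that passed the test, on chromosome 6 at 64729125-64731245 (plus strand). Their promoters and that of Sp5, a Wnt-induced zinc finger factor that was also higher in Olig3-detected cells, are shown because Wnt-responsive genes were among those that differed. The sequences are RefSeq promoters of GRCm38.p6, each 300 bases from 250 before to 50 after the transcription start, at chr10:19356289-19356588, chr6:64728875-64729174 and chr2:70474673-70474972, all on the plus strand. Capitals mark CTTTGA, core letters of the element bound by the Wnt effectors of the TCF and LEF family, searched on both strands and as the only motif.
Olig3: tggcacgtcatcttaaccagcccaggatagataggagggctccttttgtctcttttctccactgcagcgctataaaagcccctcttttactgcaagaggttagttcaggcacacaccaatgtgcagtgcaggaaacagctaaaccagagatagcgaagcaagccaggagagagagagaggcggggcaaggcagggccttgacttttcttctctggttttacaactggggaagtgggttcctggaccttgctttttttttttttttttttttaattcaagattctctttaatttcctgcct
Atoh1: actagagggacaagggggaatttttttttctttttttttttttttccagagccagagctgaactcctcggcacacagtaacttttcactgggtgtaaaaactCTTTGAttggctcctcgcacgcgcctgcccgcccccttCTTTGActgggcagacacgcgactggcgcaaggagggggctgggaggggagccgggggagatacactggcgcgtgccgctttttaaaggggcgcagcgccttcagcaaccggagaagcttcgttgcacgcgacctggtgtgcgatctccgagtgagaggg
Sp5: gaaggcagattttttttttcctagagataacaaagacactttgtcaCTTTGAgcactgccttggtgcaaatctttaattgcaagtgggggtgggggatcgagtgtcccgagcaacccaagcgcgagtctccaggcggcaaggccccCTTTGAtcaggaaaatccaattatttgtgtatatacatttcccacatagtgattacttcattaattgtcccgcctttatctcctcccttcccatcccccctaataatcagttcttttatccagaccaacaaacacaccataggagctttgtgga
The Atoh1 window held 2 matches, the Sp5 window 2 and the Olig3 window 0. No match was found in the promoter of Nkd1, the 4 promoters of Otx2 or the 2 promoters of Dll1, which were also higher in Olig3-detected cells. Of all 32851 RefSeq promoters of this length, 5257 (16.003%) held a match. Among the genes compared between the classes, a match was found for 906 of the 6789 with a promoter in the table (13.3%). It was found for 7 of the 29 genes that were higher in Olig3-detected cells and have a promoter there (24.1%), and for 4 of the 59 that were lower (6.78%). A match of 6 letters is a description of these windows and does not show binding.

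Most Olig3-detected progenitors came from 1 library. RL e14 replicates 1 and 2 held 5 and 3 of them, RL e13 replicates 1 and 2 held 280 and 57, and the e16 library held none, which allows up to 0.112% of its 2676 cells; only 3 of those cells met the conditions on Sox2, Msx3 and Barhl1, too few to give a share. As a share of Sox2- and Msx3-detected, Barhl1-undetected cells they made up 4.20% in RL e14 replicate 1 (5 of 119; 95% Wilson interval 1.81 to 9.46%). In RL e14 replicate 2 the share was 3.12% (3 of 96; 1.07 to 8.79%). It was 54.4% in RL e13 replicate 1 (280 of 515; 50.1 to 58.6%) and 13.4% in RL e13 replicate 2 (57 of 426; 10.5 to 16.9%). The intervals cover counting error only. The intervals of the 2 e14 libraries overlapped, and those of the 2 e13 libraries did not. With every cell thinned to 5000 UMIs, which left out 49 shallower cells, the shares were 2.02%, 2.35%, 24.5% and 4.26% in the same order of libraries. At that depth RL e13 replicate 1 still lay above the rest, while the interval of RL e13 replicate 2 (2.55 to 7.02%) overlapped those of both e14 libraries. No test was made of these shares, because Olig3 chose the cells.

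**Figure D1:**
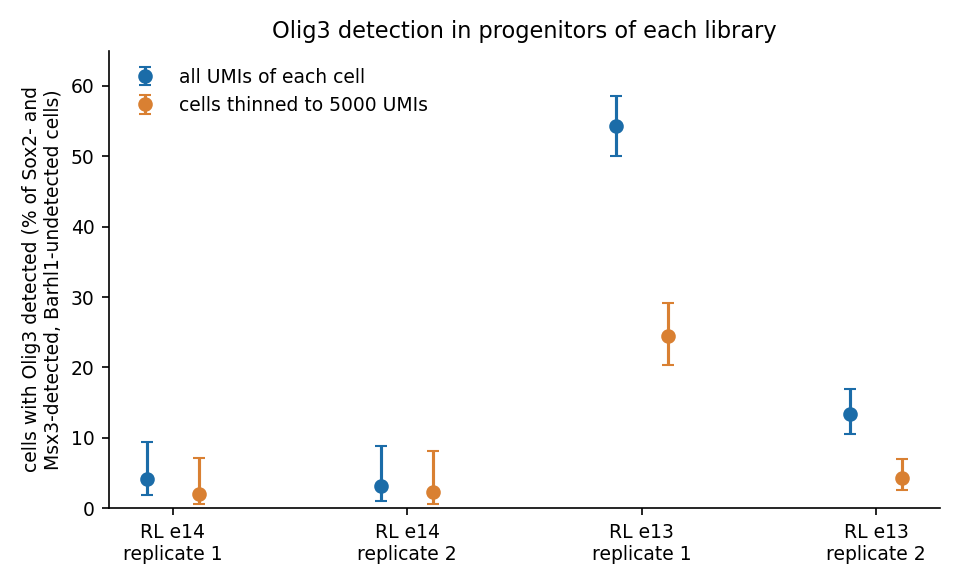
Share of Sox2- and Msx3-detected, Barhl1-undetected cells with an Olig3 UMI (vertical axis, percent) in each RL library (horizontal axis), with all UMIs and with each cell thinned to 5000 UMIs. Points are shares and bars 95% Wilson intervals; RL e13 replicate 1 is highest at 54.4%, or 24.5% after thinning, and the e14 libraries are at 4.20% and 3.12%, or 2.02% and 2.35% after thinning.

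The number of Olig3 UMIs per member also differed between libraries. In RL e13 replicate 1, 113 members had 1 UMI, 57 had 2, 31 had 3 and 79 had 4 or more, up to 14. In RL e13 replicate 2 the same counts were 42, 11, 3 and 1. In RL e14 replicate 1, 4 members had 1 UMI and 1 had 3, and all 3 members of RL e14 replicate 2 had 1. A member with a single UMI stands just inside the rule, and a cell with none just outside it. Olig3 UMIs were also counted in other classes of cells, which were not made to exclude members. Among Sox2- and Gdf10-detected cells without Atoh1 and Barhl1, the share with Olig3 was 6.11% (8 of 131) and 1.09% (1 of 92) in the e14 libraries and 42.7% (123 of 288) and 14.7% (55 of 374) in the e13 libraries, and their median depth was 14773, 14982, 18130 and 15830 UMIs. Postmitotic cells with Neurod1 and no Sox2, Mki67 or Top2a had Olig3 in 14.8% (24 of 162) and 12.8% (18 of 141) of cells in the e14 libraries, at median depths of 14300 and 19259 UMIs. The same class had Olig3 in 24.1% (45 of 187) of cells in RL e13 replicate 2 and in 10.4% (213 of 2049) in the e16 library, at median depths of 17667 and 10348 UMIs, and RL e13 replicate 1 held only 2 such cells. Neither class is known to lack Olig3, so they give no clean background. In both e14 libraries and in RL e13 replicate 2 the share of progenitors with Olig3 was below that of postmitotic cells of the same library. A single Olig3 UMI there is not read as expression by the progenitor. In RL e13 replicate 2 this holds for 42 of the 57 members, which were kept in the comparison below. The Olig3-detected profile of that library therefore rests mostly on cells with a single Olig3 UMI. The condition on Barhl1 left out 8 of 13 and 6 of 9 Sox2-, Msx3- and Olig3-detected cells in the e14 libraries, and 21 of 301 and 52 of 109 in the e13 libraries.

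The label was checked against its markers. Cdon, a surface receptor that takes part in Hedgehog signalling, averaged 168 and 56.9 CPM (UMIs of a gene per 1000000 UMIs of the cell, as a mean over cells) in Olig3-detected cells of RL e13 replicates 1 and 2, against 117 and 28.5 CPM in Olig3-undetected cells. Id1, an inhibitor of basic helix-loop-helix factors that responds to BMP, averaged 1008 and 607 CPM in Olig3-detected cells, against 1054 and 760.4 CPM in Olig3-undetected cells. Rhbdl3, a rhomboid-family membrane protein, averaged 40.4 and 33.4 CPM in Olig3-detected cells, against 57.2 and 26.3 CPM in Olig3-undetected cells. Of these 3 markers Cdon alone stood above the Olig3-undetected level in both e13 libraries, Id1 stood below it in both, and Rhbdl3 lay on either side of it. All 3 were detected in both classes, so apart from Olig3 itself the listed markers other than Cdon do not set these cells apart from their Olig3-undetected neighbours. Msx3 averaged 379 and 467 CPM in Olig3-detected cells, against 572 and 546 CPM in Olig3-undetected cells.

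Depth and markers of other cell types are given for both classes. Median depth was 18838 and 16089 UMIs per cell in Olig3-detected cells of RL e13 replicates 1 and 2, against 17408 and 15269 UMIs in Olig3-undetected cells, and 6 barcodes occurred in more than 1 library. The summed level of 10 microglial genes was 1.88 and 2.39 CPM in Olig3-detected cells, against 2.12 and 3.82 CPM in Olig3-undetected cells, with Aif1, Csf1r, Cx3cr1, C1qb and Ctss at 0 in the detected cells of both e13 libraries. The 9 meningeal genes found in the table summed to 3.89 and 5.96 CPM in Olig3-detected cells, against 3.00 and 4.88 CPM in Olig3-undetected cells. The 8 endothelial and mural genes summed to 12.7 and 8.83 CPM in Olig3-detected cells, against 8.66 and 15.8 CPM in Olig3-undetected cells, with Cldn5, Pecam1 and Flt1 at 0 in the detected cells. The 6 red blood cell genes summed to 6.97 and 36.9 CPM in Olig3-detected cells, against 6.59 and 32.1 CPM in Olig3-undetected cells. The 9 genes of GABAergic interneurons summed to 19.6 and 2.25 CPM in Olig3-detected cells, against 23.3 and 9.04 CPM in Olig3-undetected cells. Depth and the meningeal and red blood cell sums were higher in Olig3-detected cells of both libraries, and the microglial and GABAergic sums were lower. Endothelial and mural markers went opposite ways in the 2 libraries. The part of depth and of these markers in the results below was not tested.

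Atoh1, Nkd1 and Sp5 were among the genes that were higher in Olig3-detected progenitors, and Fabp7, Ednrb and Ptf1a among those that were lower. The classes were compared in the 2 e13 libraries, which alone held at least 10 cells of each, with limma on log2(CPM + 5) of 1 profile per class and library and the library as a block. Of 8374 genes, 34 (0.406%) were higher and 77 (0.92%) lower in Olig3-detected cells at a Benjamini-Hochberg adjusted p under 0.05, 111 (1.33%) in all. These shares are the background for the list counts below. The higher genes made up 30.6% of these calls, and 41.4% when UMI counts were summed over cells. The median difference over all 8374 genes was -0.01 on the log2 scale, and 47.6% of genes lay above 0. The calls rest on 2 pairs of profiles with 1 residual degree of freedom per gene. No gene passed without the library block (195 at an unadjusted p under 0.05), or when the 5 members of RL e14 replicate 1 were added as a further library (190 at an unadjusted p under 0.05), against 813 (9.71%) at an unadjusted p under 0.05 in the comparison as made.

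**Figure D2:**
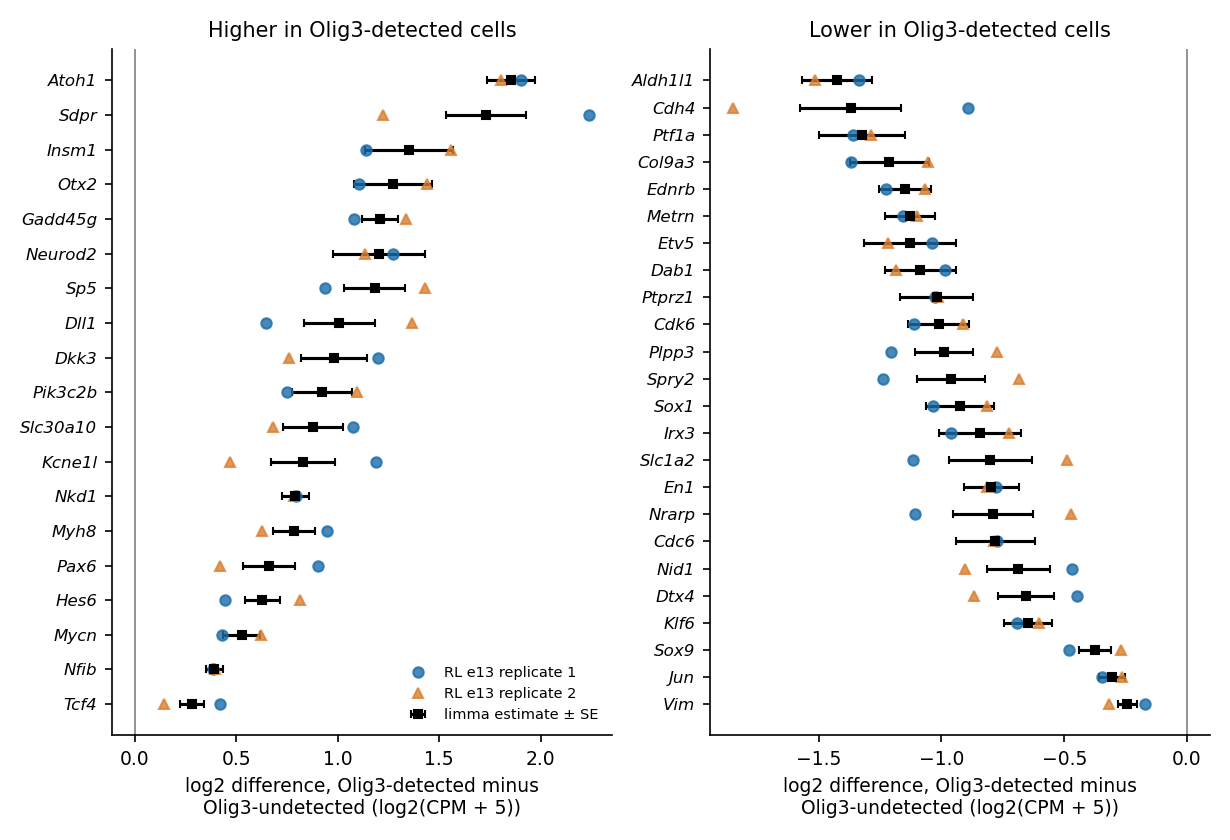
Log2 difference between Olig3-detected and Olig3-undetected progenitors (horizontal axis, log2(CPM + 5)) for the genes named here with an adjusted p under 0.05, higher genes on the left and lower genes on the right. Circles are RL e13 replicate 1, triangles RL e13 replicate 2 and squares the limma estimate with its standard error; Atoh1 is highest at 1.85 and Aldh1l1 lowest at -1.42.

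Rhombic lip and granule lineage factors were led by Atoh1, the factor that specifies granule neuron precursors. It averaged 129.8 and 119.5 CPM in Olig3-detected cells of RL e13 replicates 1 and 2, against 31.1 and 30.7 CPM in Olig3-undetected cells. The difference was 1.85 ± 0.12 on the log2 scale (SE, n = 2 libraries; limma, Benjamini-Hochberg adjusted p = 7.5e-06), and the classes did not overlap. In fits that set 1 e13 library beside the 5 members of RL e14 replicate 1, added after seeing the data, the Atoh1 difference was -0.81 without RL e13 replicate 1 and -0.76 without RL e13 replicate 2. Insm1, a zinc finger factor of early neuronal commitment, averaged 14.7 and 32.3 CPM in Olig3-detected cells, against 3.92 and 7.67 CPM in Olig3-undetected cells (1.35 ± 0.22; adjusted p = 0.0085). In RL e13 replicate 2 Insm1 stood at 11.5, 7.88 and 318 CPM in members with 1, 2 and 3 or more Olig3 UMIs. Those were 42, 11 and 4 cells, so its level there rests largely on 4 cells. Pax6, a homeobox factor of the rhombic lip and granule lineage, averaged 88.9 and 115 CPM in Olig3-detected cells, against 45.2 and 85.0 CPM in Olig3-undetected cells (0.66 ± 0.13; adjusted p = 0.028). Nfib, a nuclear factor I family member, averaged 1210 and 1709 CPM in Olig3-detected cells, against 924 and 1298 CPM in Olig3-undetected cells (0.39 ± 0.04; adjusted p = 0.00063). These 4 were higher and none lower of 14 members tested, with a list median of 0.18 against -0.01 over all genes. The remaining 10 did not pass, among them Zic1 at -0.03 and Meis1 at 0.22. Otx2, a homeobox factor of the forebrain, midbrain and posterior rhombic lip, averaged 23.7 and 32.4 CPM in Olig3-detected cells, against 8.36 and 8.76 CPM in Olig3-undetected cells (1.27 ± 0.19; adjusted p = 0.0058). Otx2 is listed here with the roof plate and patterning genes, and it was the only one of 6 roof plate and choroid plexus genes tested to pass. Lmx1a, a roof plate and rhombic lip factor, was too low to be tested, with 22.1 and 0 CPM in Olig3-detected cells, against 11.4 and 2.89 CPM in Olig3-undetected cells.

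Of the Wnt pathway genes tested 3 passed and 17 did not, where 1.33% of all genes tested passed. Nkd1, an inhibitor induced by Wnt signalling, averaged 495 and 459 CPM in Olig3-detected cells, against 283 and 264 CPM in Olig3-undetected cells (0.79 ± 0.07; limma, Benjamini-Hochberg adjusted p = 9e-05). Sp5 averaged 56.0 and 86.4 CPM in Olig3-detected cells, against 26.9 and 28.9 CPM in Olig3-undetected cells (1.18 ± 0.15; adjusted p = 0.0018). Dkk3, a secreted member of the Dickkopf family, averaged 60.3 and 30.3 CPM in Olig3-detected cells, against 23.4 and 15.8 CPM in Olig3-undetected cells (0.98 ± 0.16; adjusted p = 0.011). These 3 were higher and none lower of 20 Wnt members tested, with a median of 0.07. The ligand Wnt1, made at the dorsal midline, did not pass (0.92 ± 0.23; adjusted p = 0.087), with 63.3 and 13.8 CPM in Olig3-detected cells, against 20.2 and 9.19 CPM in Olig3-undetected cells. Nor did Axin2, a negative-feedback target of the pathway (0.31 ± 0.09; adjusted p = 0.18). Wls, which carries Wnt ligands to the surface and marks the inner rhombic lip, averaged 211 and 173 CPM in Olig3-detected cells, against 157 and 159.7 CPM in Olig3-undetected cells. Its difference of 0.26 ± 0.10 did not pass (adjusted p = 0.34). It passed when cells of the classes were paired by total UMIs (0.37; adjusted p = 0.017). In RL e13 replicate 1 that pairing used all 235 Olig3-undetected cells and the 235 members with the most UMIs. It therefore did not equalize depth there.

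Notch genes moved in both directions. Dll1, a Notch ligand of cells entering differentiation, averaged 50.5 and 56.1 CPM in Olig3-detected cells, against 30.4 and 18.7 CPM in Olig3-undetected cells (1.01 ± 0.17; limma, Benjamini-Hochberg adjusted p = 0.014). Hes6, which opposes Hes1 and promotes neuronal differentiation, averaged 358 and 514 CPM in Olig3-detected cells, against 262 and 290.5 CPM in Olig3-undetected cells (0.63 ± 0.09; adjusted p = 0.0029). Both were higher, but Dll1 had a difference of -0.14 without Atoh1-detected cells. Nrarp, a target and feedback inhibitor of Notch, averaged 36.0 and 26.5 CPM in Olig3-detected cells, against 83.4 and 38.7 CPM in Olig3-undetected cells (-0.79 ± 0.16; adjusted p = 0.037). Dtx4, a Deltex-family ubiquitin ligase, averaged 99.9 and 84.0 CPM in Olig3-detected cells, against 138 and 157 CPM in Olig3-undetected cells (-0.66 ± 0.11; adjusted p = 0.014). The other 13 of 17 members tested did not pass, among them the receptor Notch1 (-0.44; adjusted p = 0.068) and its target Hes5 (-0.36; adjusted p = 0.068), and the list median was -0.01.

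Ptf1a was lower among the fate genes of the ventricular zone. Ptf1a, which specifies GABAergic fate, averaged 16.6 and 5.38 CPM in Olig3-detected cells, against 50.4 and 20.3 CPM in Olig3-undetected cells (-1.32 ± 0.18; limma, Benjamini-Hochberg adjusted p = 0.0025). Of the 4 members tested 2 were lower and none was higher, at a list median of -0.67. Kirrel2 (-0.61; adjusted p = 0.38) and Tfap2b (-0.63; adjusted p = 0.28) did not pass. Summed over the 14 members in the table, the list stood at 236 and 147 CPM in Olig3-detected cells, against 481 and 197 CPM in Olig3-undetected cells. Atoh1 and Ptf1a were found together in 2 of 280 and 1 of 57 Olig3-detected cells, against 6 of 235 and 0 of 369 Olig3-undetected cells. When cells with Ptf1a were left out of both classes, an alternative chosen after seeing the data, 103 genes were higher and 157 lower. With those cells included, 34 were higher and 77 lower. The degrees of freedom that limma borrowed from other genes also went from 10.9 to infinite. The 2 sets of counts therefore do not measure what leaving out Ptf1a cells did.

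Of 19 radial glial and astroglial genes tested, 9 were lower and none was higher, at a median of -0.36. Aldh1l1, a folate enzyme used as an astroglial marker, averaged 13.2 and 28.1 CPM in Olig3-detected cells, against 40.9 and 89.6 CPM in Olig3-undetected cells (-1.42 ± 0.14; limma, Benjamini-Hochberg adjusted p = 0.00035). Ednrb, an endothelin receptor of radial glia, averaged 34.2 and 110.4 CPM in Olig3-detected cells, against 86.8 and 237 CPM in Olig3-undetected cells (-1.15 ± 0.11; adjusted p = 0.00015). Ptprz1, a receptor phosphatase of glial progenitors, averaged 9.98 and 35.8 CPM in Olig3-detected cells, against 25.5 and 77.2 CPM in Olig3-undetected cells (-1.02 ± 0.15; adjusted p = 0.0046). Each of these was lower in both libraries, although the level of all 3 was higher in RL e13 replicate 2 in both classes. Slc1a2, a glutamate transporter, differed by -0.80 ± 0.17 (adjusted p = 0.04). Fabp7, the brain lipid-binding protein of radial glia, falls outside the naming rule and was chosen after its values were seen. It averaged 2813 and 3545 CPM in Olig3-detected cells, against 4577 and 6388 CPM in Olig3-undetected cells (-0.77 ± 0.04; adjusted p = 4.4e-07). Cspg5, Ptn, Ttyh1 and Sparcl1 were the other lowered members. Gdf10, a BMP-family ligand of Bergmann glial precursors (0.03), Slc1a3 (-0.22) and Gja1 (0.48) were among the 10 that did not pass. Among 15 neural stem cell factors tested, Sox1 (-0.92 ± 0.14; adjusted p = 0.0056), Sox9 (-0.37 ± 0.07; adjusted p = 0.016) and the intermediate filament gene Vim (-0.24 ± 0.04; adjusted p = 0.0063) were lower, none was higher, and the median was -0.11.

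FGF pathway genes had a median of -0.49 over 12 members tested, with 2 lower and none higher. Spry2, a feedback inhibitor of FGF signalling, averaged 35.0 and 69.0 CPM in Olig3-detected cells, against 89.2 and 114 CPM in Olig3-undetected cells (-0.96 ± 0.14; limma, Benjamini-Hochberg adjusted p = 0.0042). Etv5, an FGF-induced ETS factor, averaged 5.66 and 15.0 CPM in Olig3-detected cells, against 16.9 and 41.6 CPM in Olig3-undetected cells (-1.13 ± 0.19; adjusted p = 0.01). Both were lower in both libraries. Fgf17, a ligand of the midbrain-hindbrain boundary, did not pass (-1.85 ± 0.58; adjusted p = 0.22), since RL e13 replicate 1 had 0.863 CPM in Olig3-detected cells, against 66.1 CPM in Olig3-undetected cells, whereas RL e13 replicate 2 had 0 CPM against 0.346 CPM. En1, a homeobox factor of the same boundary region, averaged 64.4 and 46.5 CPM in Olig3-detected cells, against 114 and 85.5 CPM in Olig3-undetected cells (-0.80 ± 0.11; adjusted p = 0.0036). Irx3, an Iroquois patterning factor, differed by -0.84 ± 0.17 (adjusted p = 0.029). With Otx2 higher, these made 1 higher and 2 lower of 10 patterning factors tested.

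BMP and Hedgehog genes gave no calls, and cell cycle genes gave some. Of 16 BMP members and 7 Hedgehog members tested, none passed limma at a Benjamini-Hochberg adjusted p under 0.05. Since 1.33% of all genes tested passed, no call in lists of this size says little about their members. The dorsal factors Msx1 (0.70 ± 0.20; adjusted p = 0.14) and Msx2 (0.53 ± 0.14; adjusted p = 0.11), both BMP-responsive, had positive differences that did not pass. None of 20 G2 and M phase genes passed, at a list median of 0.18, and Cdc6, a replication licensing factor (-0.78 ± 0.16; adjusted p = 0.038), was the one of 20 S phase genes that did, at a list median of -0.15. Mki67, a proliferation marker, averaged 248 and 231 CPM in Olig3-detected cells, against 262 and 221 CPM in Olig3-undetected cells (-0.01 ± 0.08; adjusted p = 0.99). With cells thinned to 5000 UMIs and the classes set again on the thinned counts, 88 and 14 members were left. Mki67 was then lower in Olig3-detected cells (-1.24; adjusted p = 0.0033), in a fit with infinite borrowed degrees of freedom. With the classes set at full depth, Mki67 was detected at 5000 UMIs in 38.4% and 35.1% of Olig3-detected cells. The shares of Olig3-undetected cells were 44.0% and 37.5%, with overlapping intervals in both libraries. Among 19 cell cycle control genes, the stress-induced growth arrest gene Gadd45g (1.21 ± 0.09; adjusted p = 2.5e-05) and Mycn, a Myc-family factor of granule precursors (0.53 ± 0.09; adjusted p = 0.014), were higher, and Cdk6 (-1.01 ± 0.12; adjusted p = 0.0017) was lower.

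**Figure D3:**
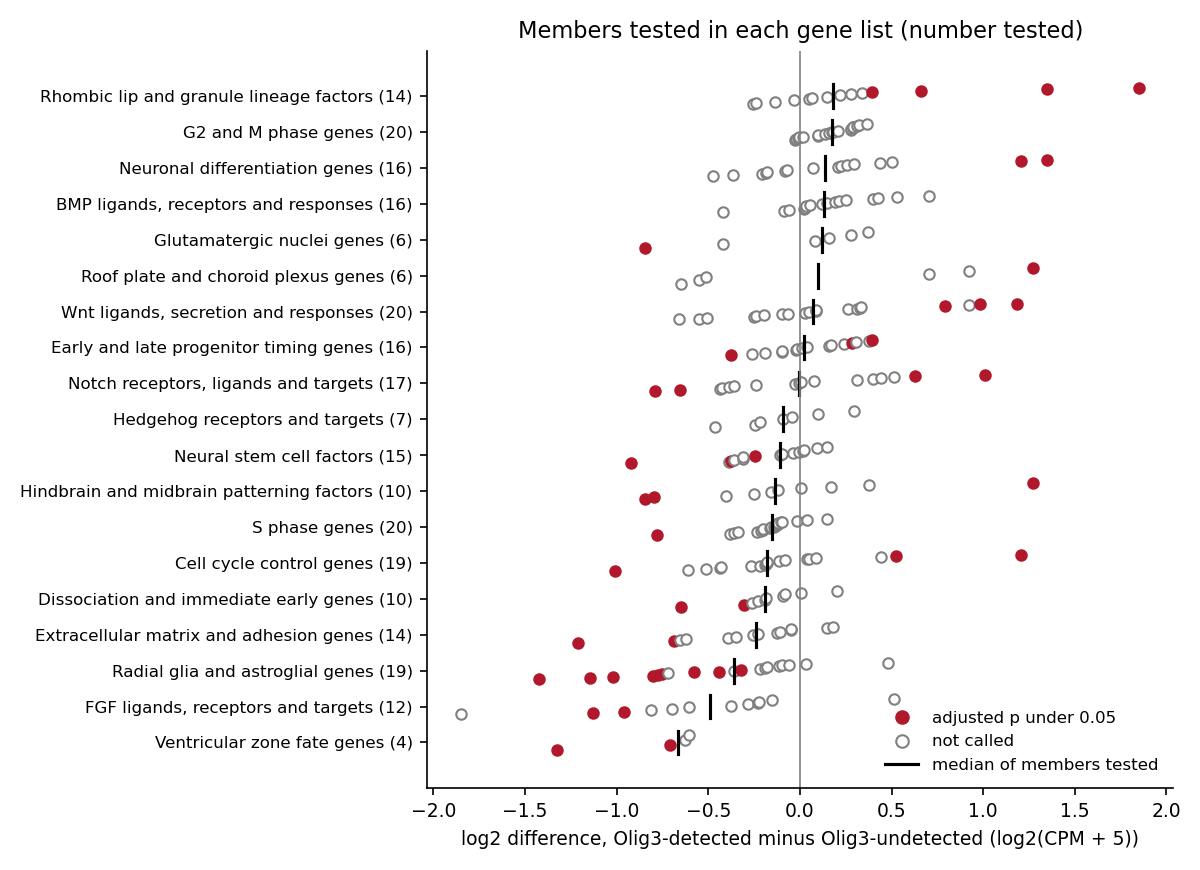
Log2 difference, Olig3-detected minus Olig3-undetected progenitors (horizontal axis, log2(CPM + 5)), of each member tested in the gene lists with at least 4 members tested. Filled circles passed an adjusted p of 0.05, open circles did not, and black bars are list medians, which run from -0.67 for ventricular zone fate genes to 0.18 for rhombic lip and granule lineage factors.

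The remaining lists gave between 0 and 3 calls each. Neurod2, a neuronal differentiation factor (1.20 ± 0.23; limma, Benjamini-Hochberg adjusted p = 0.023), and Insm1 were higher among 16 neuronal differentiation genes tested, and none was lower. Neurod2 averaged 25.5 and 10.4 CPM in Olig3-detected cells of RL e13 replicates 1 and 2, against 7.63 and 2.01 CPM in Olig3-undetected cells. In RL e13 replicate 2 its levels came from 13 and 11 UMIs, and that of Insm1 largely from 4 members. Of 16 progenitor timing genes, Nfib and Tcf4, an E protein partner of Atoh1 (0.28 ± 0.06; adjusted p = 0.04), were higher and Sox9 was lower. Of 14 extracellular matrix and adhesion genes, Col9a3 (-1.21 ± 0.16; adjusted p = 0.0025) and Nid1 (-0.69 ± 0.13; adjusted p = 0.021) were lower, at a median of -0.24. Irx3 was the one lower member of 6 genes of the glutamatergic nuclei, and the one oligodendrocyte lineage gene tested did not pass. Of 10 dissociation and immediate early genes, Klf6 (-0.65 ± 0.10; adjusted p = 0.0058) and Jun (-0.31 ± 0.05; adjusted p = 0.015) were lower, at a median of -0.19. The 15 genes of that list summed to 1829 and 4344 CPM in Olig3-detected cells, against 2303 and 4619 CPM in Olig3-undetected cells, and were lower with Olig3 detection in both libraries. Their part in the differences above was not tested.

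Several of the most changed genes belonged to none of the lists. Sdpr (Cavin2), a coat protein of caveolae, averaged 71.4 and 89.7 CPM in Olig3-detected cells, against 11.2 and 35.6 CPM in Olig3-undetected cells (1.73 ± 0.20; limma, Benjamini-Hochberg adjusted p = 0.00096). Myh8, a skeletal myosin heavy chain, averaged 182 and 174 CPM in Olig3-detected cells, against 92.0 and 110.8 CPM in Olig3-undetected cells (0.79 ± 0.10; adjusted p = 0.0024). The lipid kinase gene Pik3c2b (0.92), the metal transporter gene Slc30a10 (0.88) and the potassium channel accessory gene Kcne1l (0.83) were also higher, with adjusted p-values of 0.0088, 0.011 and 0.023. Metrn, which encodes the secreted protein meteorin, averaged 57.0 and 77.3 CPM in Olig3-detected cells, against 133 and 172 CPM in Olig3-undetected cells (-1.13 ± 0.10; adjusted p = 0.00013). Cdh4, a classical cadherin (-1.37), the reelin adaptor Dab1 (-1.09) and the lipid phosphatase gene Plpp3 (-0.99) were lower too, with adjusted p-values of 0.0053, 0.0024 and 0.0013.

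Fewer genes passed without cells in which Atoh1 was detected. Leaving those out of both classes kept 131 and 32 Olig3-detected cells of RL e13 replicates 1 and 2, against 183 and 305 Olig3-undetected cells, and 2 genes were higher and 6 lower by limma with Benjamini-Hochberg adjustment. Each of the 8 was also called with Atoh1-detected cells included. Sdpr (1.43; adjusted p = 0.031) was higher, and Ednrb (-0.89; adjusted p = 0.031) and Metrn (-0.78; adjusted p = 0.044) were among the lower genes. All 77 genes that were lower in the full comparison kept a negative difference, and 28 of the 30 higher genes still tested kept a positive one. Gadd45g (-0.41) and Dll1 (-0.14) did not keep theirs, and Nkd1 (0.48; adjusted p = 0.12), Sp5 (0.39; adjusted p = 0.79) and Ptf1a (-1.16; adjusted p = 0.12) no longer passed.

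Levels of some of these genes are given by the number of Olig3 UMIs per cell. They are a description, because Olig3 UMIs chose the cells, the genes other than Mki67 were already called between cells with and without Olig3, and depth differed between the UMI classes. In RL e13 replicate 1, cells with 0, 1, 2 and 3 or more Olig3 UMIs (235, 113, 57 and 110 cells) averaged 31.1, 84.6, 93.3 and 195 CPM of Atoh1. In RL e13 replicate 2 (369, 42, 11 and 4 cells) they averaged 30.7, 79.4, 175 and 388 CPM. Atoh1 thus stood above the level of cells with no Olig3 UMI already at a single one, in both libraries. Fabp7 stood at 4577, 3400.3, 3019 and 2104 CPM in RL e13 replicate 1 and 6388, 3731, 3403 and 1986 CPM in RL e13 replicate 2. Ptf1a stood at 50.4, 32.3, 8.67 and 4.53 CPM in RL e13 replicate 1 and at 20.3, 3.67, 13.9 and 0 CPM in RL e13 replicate 2, where it did not fall at every step. Mki67 stood at 262, 216, 289.6 and 259 CPM in RL e13 replicate 1, with no order, and at 221, 227, 228 and 288 CPM in RL e13 replicate 2. Median depth in the 4 classes was 17408, 18049, 20457 and 19359 UMIs in RL e13 replicate 1.

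**Figure D4:**
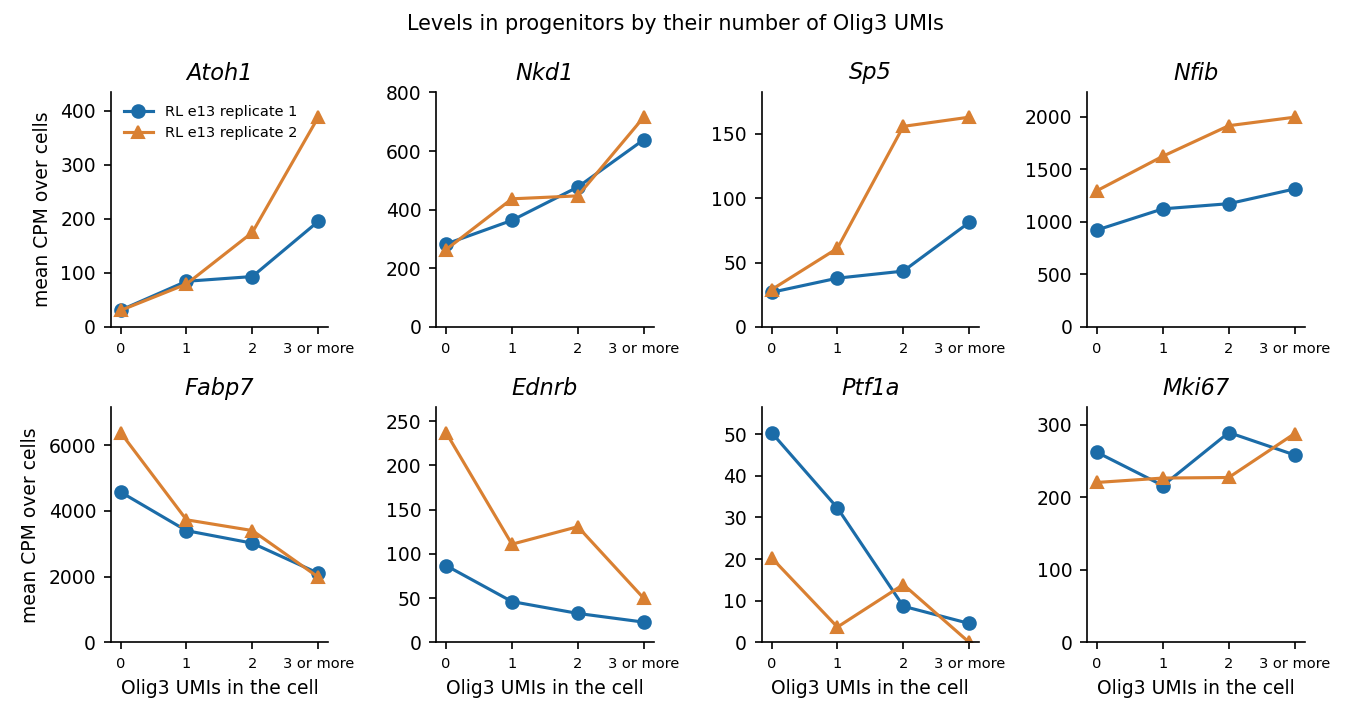
Mean CPM (vertical axes, 1 scale per gene) of 8 genes in progenitors with 0, 1, 2 and 3 or more Olig3 UMIs (horizontal axes). Circles are RL e13 replicate 1 (235, 113, 57 and 110 cells) and triangles RL e13 replicate 2 (369, 42, 11 and 4 cells); Atoh1, Nkd1, Sp5 and Nfib are higher at 3 or more UMIs than at 0 in both libraries, Fabp7, Ednrb and Ptf1a are lower, and Mki67 shows no shared order.

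Counted as cells rather than levels, the rhombic lip fate gene was found in a minority of members at equal depth. At 5000 UMIs per cell, with the classes set at full depth, Atoh1 was detected in 30.5% (85 of 279) and 22.8% (13 of 57) of Olig3-detected cells in RL e13 replicates 1 and 2, against 10.3% (24 of 234) and 8.49% (31 of 365) of Olig3-undetected cells. At full depth the shares were 53.2% and 43.9% of Olig3-detected cells, against 22.1% and 17.3% of Olig3-undetected cells. Otx2 was detected in 6.45% and 14.04% of Olig3-detected cells at 5000 UMIs, against 1.71% and 3.84% of Olig3-undetected cells. The Otx2 intervals overlapped in RL e13 replicate 1 (4.12 to 9.97% against 0.67 to 4.31%). Ptf1a was detected in 3.23% and 3.51% of Olig3-detected cells, against 11.97% and 5.75% of Olig3-undetected cells, and its intervals overlapped in RL e13 replicate 2. Ednrb was detected in 12.9% and 29.8% of Olig3-detected cells, against 31.6% and 61.1% of Olig3-undetected cells. Mki67 or Top2a, markers of cycling cells, were detected in 47.7% and 49.1% of Olig3-detected cells, against 51.3% and 46.6% of Olig3-undetected cells, with overlapping intervals in both libraries.

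**Figure D5:**
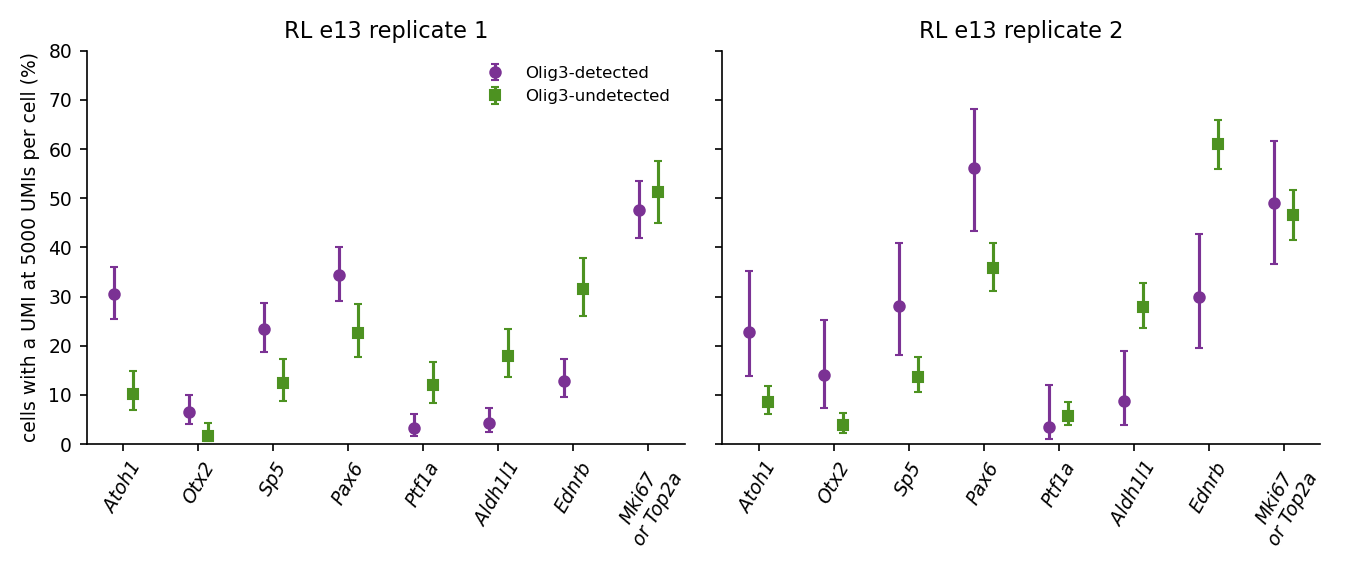
Share of cells with at least 1 UMI of each gene at 5000 UMIs per cell (vertical axis, percent) in Olig3-detected (circles) and Olig3-undetected (squares) progenitors of RL e13 replicates 1 and 2 (panels). Bars are 95% Wilson intervals; Atoh1 is at 30.5% and 22.8% in Olig3-detected cells, against 10.3% and 8.49% in Olig3-undetected cells.

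The members of the 2 e13 libraries also differed from each other. These libraries are labelled replicates, so their difference has no test. Of 8318 genes, 2 (0.024%) were at least 4-fold higher and 22 (0.264%) at least 4-fold lower in members of RL e13 replicate 1 than of RL e13 replicate 2, on log2(CPM + 5) and with at least 50 CPM in the higher library. All 24 differences had the same sign in Olig3-undetected cells, and 15 were also 4-fold there. Msx1 averaged 51.4 CPM in members of RL e13 replicate 1 and 5.74 CPM in those of RL e13 replicate 2. It averaged 28.1 and 1.88 CPM in Olig3-undetected cells of the same libraries, and 1.81 and 0.412 CPM in those of RL e14 replicates 1 and 2. The largest of the 22 differences were those of Hist1h3c (11.7 and 208 CPM), Rpl26 (30.7 and 437 CPM) and Hist1h4d (22.3 and 315 CPM). Hist1h4d also differed between Olig3-undetected cells of RL e14 replicates 1 and 2 (343 and 17.1 CPM). Others of the 22, chosen here after their values were seen, were the matrix genes Vcan (14.7 and 149.7 CPM) and Tnc (9.01 and 101 CPM). The immediate early gene Egr1 (43.1 and 314 CPM) was another. The age tags of these libraries differ too, and age, library and replicate cannot be told apart here.

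The 8 members of the e14 libraries give values without a test. Their RNA amounted to 75054 UMIs in RL e14 replicate 1 and 53427 UMIs in RL e14 replicate 2. Of the 34 genes that were higher in the e13 comparison, 17 and 21 had a positive difference in RL e14 replicates 1 and 2, where 46.6% and 41.6% of all tested genes did. Of the 77 that were lower, 56 and 67 had a negative difference, where 53.4% and 58.4% of all genes did. Atoh1 had 0 UMIs in the 5 members of RL e14 replicate 1, which allows up to 40.0 CPM (3 counts; exact Poisson interval 0 to 49.1), against 67 UMIs (41.4 CPM of the summed counts; exact Poisson interval 32.1 to 52.6) in its 114 Olig3-undetected cells. In RL e14 replicate 2 it had 5 UMIs (93.6 CPM; 30.4 to 218), all in 1 of the 3 members, against 62 UMIs (44.6 CPM; 34.2 to 57.2) in 93 Olig3-undetected cells. The intervals of the classes overlapped in both e14 libraries. They take each UMI as independent and leave out the spread between cells, so their overlap does not compare the classes. A comparison of e14 with e13 members was not tested, because neither e14 library held 10 of them.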

How the data were processed

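Single-cell RNA of 5 mouse cerebellum libraries was made with 10x Chromium kits, as the protocols in the labels say. The submitters' processing notes name Cell Ranger and mm10 without roles. For the filters on cells and for doublets no step is stated there, and no doublet caller was run here. The deposited values are natural log values, ln(1 + 10000 × UMIs / total UMIs of the cell), a formula read from the values themselves: back-transformed values summed to 10000 in every cell. Whole UMI counts were recovered from all 29540669 deposited values above 0 (100% whole within 0.1 of a count). The table held 15971 genes. RL libraries had medians of 15855 to 19970 UMIs per cell.

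Column prefixes were matched to libraries through the labels, and the e16 library was the one left over. Each class and library with at least 10 cells gave 1 profile, the mean over cells of per-cell CPM. Genes with a mean of at least 10 CPM were fitted on log2(CPM + 5) with limma 3.58.1 (trend, library as a block) in R 4.3.3, with Benjamini-Hochberg adjustment over 8377 genes; Id1, Rhbdl3 and Cdon, which mark the cells, were then left out of the counts. Each gene had 1 residual degree of freedom, to which limma added 10.9 from the other genes. The SE of a gene is therefore not the spread of its own 2 library differences. The library block pairs classes of the same library. Scripts used Python 3.11.15, numpy 2.4.6, pandas 2.3.3, scipy 1.17.1 and matplotlib 3.10.9. In data simulated for this comparison over 8388 genes, the fit recovered 22.4% of genes changed by 0.5 on the log2 scale, 91.0% at 1 and 100% at 2. Of its calls 8.39% were unchanged genes. The simulation gave every gene a dispersion of 0.01, which was set and not estimated from these data. Its changes lay only in genes above a higher CPM floor than the test used. These rates therefore need not hold for the real fit.

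The members, the 26 gene lists and the tests were chosen with earlier results of these data known. Genes were named if they define or mark the cells or mark the rhombic lip (Atoh1, Wls, Pax6, Otx2, Lmx1a) or proliferation (Mki67), if they were among the 10 highest or 10 lowest called genes that moved the same way in every library and reached 50 CPM, or if they were among the 4 called members of a list with the largest difference. Other list members are given as examples. Results on some genes that the rule names are not reported here. Gene coordinates are from GENCODE M21 (GRCm38). Thinning drew 5000 UMIs per cell without replacement.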

Additional observations from a re-analysis of the deposited data

Results flagged for a closer look

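The share of progenitors with Olig3 in RL e14 replicate 1, which entered no test, was 4.20% (5 of 119; 95% Wilson interval 1.81 to 9.46%). It is listed because the library lies outside the comparison and the share is above the 2.52% that a count of 0 allows, a limit that its interval includes. Thinned to 5000 UMIs the share was 2.02% (2 of 99), and at 2 or more Olig3 UMIs 0.840%, both below the limit for a count of 0. Olig3 chose the cells, so the share is a description.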

How the results depend on the processing

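The number of calls depended strongly on the processing, and the cause was not tested. Against 34 higher and 77 lower genes, no replicate block gave 0 and 0, and a minimum of 5 cells, which adds RL e14 replicate 1, gave 0 and 0. Thinning to 5000 UMIs, with the classes set again on the thinned counts, gave 4 and 41. Olig3 at 2 or more UMIs gave 20 and 50, and cells without Atoh1 2 and 6. Summed UMI counts gave 145 and 205, and pairing by total UMIs 102 and 132. That pairing used all 235 Olig3-undetected cells of RL e13 replicate 1, so it did not equalize depth there. Leaving out cells with both Otx2 and Lmx1a gave 115 and 173. Leaving out cells with Ptf1a, added after seeing the data, gave 103 and 157. Without a filter 58 were higher, with median-of-ratios scaling 74 and with voom 82; the lower genes then stayed within 1.5 times. The degrees of freedom that limma borrowed were infinite with summed counts, thinning, pairing, and without cycling, Otx2 and Lmx1a, or Ptf1a cells. They were also infinite in the fits at a minimum of 5 cells without either RL e13 library. Leaving out either RL e14 library changed nothing, since neither enters. Leaving out either RL e13 library leaves 1, with no test; with a minimum of 5 cells, added after seeing the data, it gave 2 to 4 higher and 26 to 32 lower genes.

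Of 45 called named genes, 37 kept their sign under every alternative run. With a minimum of 5 cells Dll1 was -0.015 and Slc30a10 -0.49; thinned, Myh8 was -0.10; without Atoh1 cells Gadd45g was -0.41 and Dll1 -0.14. At 5 cells without RL e13 replicate 1, Atoh1 was -0.81, Wls -1.21, Gadd45g -0.16, Dll1 -0.35, Slc30a10 -1.27 and Insm1 -0.15. At 5 cells without RL e13 replicate 2, Atoh1 was -0.76, Gadd45g -0.28, Dll1 -0.71, Slc30a10 -1.07, Dtx4 0.15 and Hes6 -0.17. In both of those fits 1 of the 2 libraries is the 5 members of RL e14 replicate 1.

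In the order RL e14 replicates 1 and 2 and RL e13 replicates 1 and 2, members made up 0.478%, 0.405%, 39.7% and 3.14% of all cells, and at 2 or more Olig3 UMIs 0.840%, 0%, 32.4% and 3.52% of progenitors. Of Sox2-detected, Barhl1-undetected cells they made up 46.2% and 9.55% in the e13 libraries, and thinned shares there were 24.5% and 4.26%. The e14 against e13 comparison of members and its alternatives were not run, because the e14 libraries held 5 and 3 members.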
